A study of Homo sapiens with 18 samples.

Results

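The signal recognition particle (SRP) genes described here are the 3 7SL RNA genes RN7SL1, RN7SL2 and RN7SL3 and the 6 SRP protein genes SRP9, SRP14, SRP19, SRP54, SRP68 and SRP72, chosen by name as 9 of the 57865 annotated genes in the table. RNA was sequenced from HEK293T, an established human embryonic kidney cell line, and from its released extracellular vesicles (EVs). The 18 libraries form 6 groups of 3 biological replicates: EVs of ATG7-/- cells (clone F2), EVs of ATG12-/- cells (clone D9), EVs of wild-type cells, and the cells of the same 3 genotypes. All 6 groups, the wild-type ones included, were kept without serum for 24 h, and each knockout is 1 clone, so the gene and the clone cannot be told apart. The labels do not say whether replicates were separate cultures, so the p-values measure only the spread between these libraries. ATG7 is the enzyme that activates ATG12 and the LC3 family for conjugation, and ATG12 is the ubiquitin-like protein joined to ATG5 in the complex that attaches LC3 to membrane lipid.

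SRP binds the signal sequence of a secreted or membrane protein as it leaves the ribosome, slows translation and brings the ribosome to its receptor on the endoplasmic reticulum. Its scaffold is 7SL RNA, a noncoding RNA made by RNA polymerase III from an internal promoter with upstream elements. SRP9 and SRP14 bind the Alu domain of 7SL, and SRP19, SRP54, SRP68 and SRP72 bind its S domain. 7SL RNA is among the most abundant cytoplasmic RNAs, it is the ancestor of the Alu repeats, and it is known as a frequent RNA of EVs.

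The 7SL copies are so alike that a 50-base read often cannot be assigned to 1 of them. RN7SL1 is at chr14:49586580-49586878 on the + strand, RN7SL2 at chr14:49862550-49862849 on the - strand and RN7SL3 at chr14:49853616-49853914 on the - strand (GRCh38, GENCODE 29), each with a single annotated exon. Of the 250 windows of 50 bases in RN7SL1, 168 (67.2%) also occur in another of the 3 copies, against 158 of 251 (62.9%) in RN7SL2 and 86 of 250 (34.4%) in RN7SL3. No window of RN7SL1 is unique to it in the annotation, because a second gene, AL139099.4, is annotated at the same place, while 34 windows of RN7SL2 and 162 of RN7SL3 occur in no other gene. How the signal divides among the copies is therefore uncertain, and the sum of the 3 was used as the main measure of 7SL.

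The values are TPM, a length-scaled share of each library, so they hold no sequencing depth, and a change in 1 abundant RNA moves the share of all others. An EV library held 13255 to 14716 genes of 1 TPM or more and a cell library 18464 to 20509. Of 10 HEK293T marker genes, 7 averaged at least 1 TPM in EVs (summed level 294 to 490 TPM) and 6 in cells (99.0 to 188 TPM). The neurofilament genes NEFM and NEFL and the keratin gene KRT8 were present, while EPCAM, NES and PAX2 averaged under 1 TPM in both. Of 8 markers of other cells, 1 averaged at least 1 TPM in EVs (summed level 1.27 to 20.6 TPM) and 3 in cells (4.49 to 26.0 TPM). That 1 was the fibroblast gene COL1A1, at 9.32 TPM in EVs and 7.23 TPM in cells. In cells it was above NEFM (5.38 TPM) and NEFL (3.45 TPM). The others past 1 TPM in cells were PTPRC (1.42 TPM) and HBA1 (1.02 TPM), and ALB, CD3E and HBB were listed at 0 throughout. Some housekeeping mRNAs were far below the annotated RNA on the opposite strand: GAPDH averaged 568 TPM in EVs and 84.7 TPM in cells, while AC006064.4, opposite to it, averaged 11737 and 3488 TPM. The strand setting of the quantification is not given in the sources used here. The part it plays in the levels of 7SL, the SRP protein genes or any other gene described here was not tested.

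7SL RNA was higher in EVs than in cells in all 3 genotypes, and no library of one kind reached the other. The 3 copies together held 73668, 73695 and 87587 TPM in ATG7-/- EVs, against 23372, 31694 and 29701 TPM in ATG7-/- cells. They held 74505, 78289 and 65390 TPM in ATG12-/- EVs, against 20299, 30592 and 26683 TPM in ATG12-/- cells. They held 88512, 91543 and 98322 TPM in wild-type EVs, against 21030, 25260 and 18813 TPM in wild-type cells. As a share of a library, 7SL thus made up 6.54% to 9.83% of the TPM in EVs and 1.88% to 3.17% in cells. In such bulk libraries, fewer vesicles or cells that hold an RNA and less of it in each cannot be told apart. RN7SL2 ranked from 1 to 4 among all genes in an EV library and from 8 to 16 in a cell library. The 9 EV libraries averaged 81279 ± 10669 TPM and the 9 cell libraries 25272 ± 4733 TPM (SD, n = 9 each), a difference of 5.60 percentage points. A two-sided exact permutation test that exchanged EV and cell libraries within genotypes gave p = 0.00025, the smallest that its 8000 arrangements allow.

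**Figure D1:**
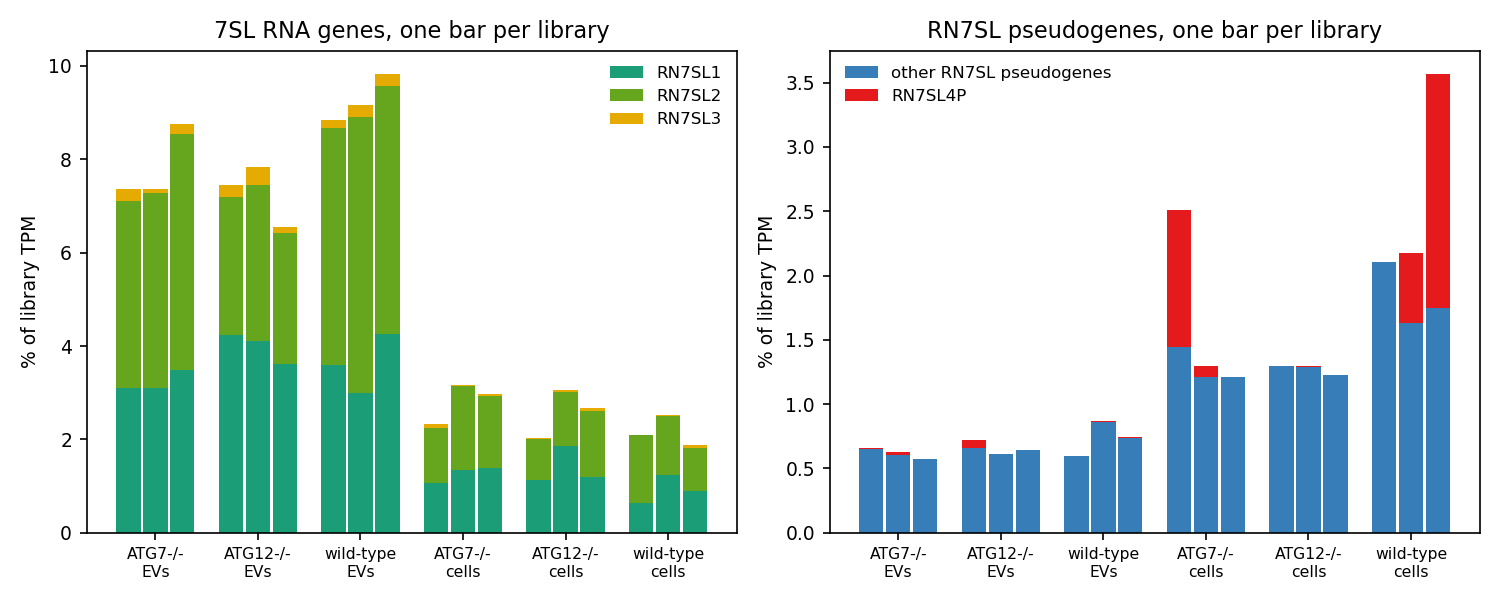
Percent of library TPM (y axis, linear) held by RN7SL1, RN7SL2 and RN7SL3 (left) and by the annotated RN7SL pseudogenes, with RN7SL4P in red (right), in each of the 18 libraries, with EVs to the left of cells and knockouts to the left of wild type. The 3 copies hold 6.54% to 9.83% in EVs and 1.88% to 3.17% in cells, while the pseudogenes stand the other way round.

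By group means as deposited, the sum was 2.77 times as high in ATG7-/- EVs as in ATG7-/- cells, 2.81 times in ATG12-/- EVs as in ATG12-/- cells, and 4.28 times in wild-type EVs as in wild-type cells. The libraries were then scaled by the median of ratios over genes with at least 1 TPM in all 18 libraries. After this scaling, the log2 fold change of EVs over cells was 1.25 in ATG7-/- (SE 0.15, limma adjusted p = 9.0e-05), 1.37 in ATG12-/- (SE 0.15, adjusted p = 3.6e-05) and 1.60 in wild type (SE 0.15, adjusted p = 4.8e-06). Over all genes tested the median log2 fold change of EVs over cells was -0.49, -0.55 and -0.76 in the same 3 genotypes after scaling, and -0.37, -0.49 and -0.48 as deposited, so part of the size of any EV-to-cell change depends on the scaling. Without scaling the 7SL sum rose by 1.48, 1.51 and 2.11 on the log2 scale.

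Each copy was also fitted alone, with the limit that shared windows set. RN7SL1 rose in EVs by 1.13 in ATG7-/- (SE 0.22), 1.40 in ATG12-/- (SE 0.22) and 1.51 in wild type (SE 0.22) on the log2 scale, with limma adjusted p of 0.0046, 0.0011 and 0.00032. RN7SL2 rose by 1.34, 1.29 and 1.67 (SE 0.19 each), with limma adjusted p of 0.00039, 0.00057 and 3.1e-05. RN7SL3 was the minor copy, at 1.18% to 4.98% of the 7SL sum in EVs and 0% to 3.82% in cells. Its level was 2520, 873 and 2262 TPM in ATG7-/- EVs, against 894, 345 and 397 TPM in ATG7-/- cells. It had 2503, 3898 and 1285 TPM in ATG12-/- EVs, against 292, 376 and 628 TPM in ATG12-/- cells. In wild type it had 1828, 2595 and 2623 TPM in EVs, while cells had 342 and 582 TPM in replicates 2 and 3 and replicate 1 was listed at 0. RN7SL3 thus passed the test in wild type alone (log2 fold change 4.91, SE 1.63, limma adjusted p = 0.040), a value set by the library listed at 0: without it the log2 fold change was 1.86, still past the threshold. That call was lost when any 1 of the wild-type EV libraries was left out (adjusted p = 0.070 to 0.086). It was also lost with a pseudocount of 0.1 (log2 fold change 6.01, adjusted p = 0.062), with no filter on low values (4.91, adjusted p = 0.058) and with sample weights and no trend (3.798, adjusted p = 0.18).

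Of the 9 SRP genes, the calls therefore numbered 2 higher and 0 lower in ATG7-/- EVs, where 2.71% of all genes tested were called higher and 8.68% lower, and 2 higher and 0 lower in ATG12-/- EVs, where 2.27% were called higher and 8.97% lower. In wild-type EVs 3 were called higher and 0 lower, where 4.02% of all genes were called higher and 20.6% lower. All calls were 7SL genes. These copies share windows, so their calls and their values in the median that follows are not independent of each other. The median log2 fold change over the 9 members was 0.53, 0.61 and 0.12 in the 3 genotypes, beside the medians over all genes given above.

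The 659 annotated RN7SL pseudogenes, which are copies of 7SL scattered through the genome, stood the opposite way. Their summed level was 6623, 6245 and 5699 TPM in ATG7-/- EVs, against 25124, 12996 and 12114 TPM in ATG7-/- cells. It was 7197, 6159 and 6409 TPM in ATG12-/- EVs, against 12960, 12944 and 12305 TPM in ATG12-/- cells. Wild-type EVs had 5999, 8680 and 7451 TPM, against 21081, 21775 and 35693 TPM in wild-type cells. Every EV library was below every cell library, with averages of 6718 ± 923 TPM in EVs and 18555 ± 8123 TPM in cells (SD, n = 9 each, two-sided exact permutation p = 0.00025). Lower in EVs was also the common direction over all genes tested. After scaling, 32.5%, 29.7% and 30.1% of them were higher in EVs in ATG7-/-, ATG12-/- and wild type. Within these genotypes EVs and cells did not overlap, in either direction, for 31.1%, 30.7% and 35.5% of all genes. The pseudogenes made up 6.11% to 8.93% of all 7SL-annotated TPM in EVs and 28.97% to 65.5% in cells. How many of these TPM are 7SL reads placed on a pseudogene was not tested.

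RN7SL4P (chr3:15738515-15738809, + strand), a pseudogene described here after its values were seen, made up a large part of the sum in some libraries. It was listed at 93.3, 207 and 0 TPM in ATG7-/- EVs and at 10714, 896 and 0 TPM in ATG7-/- cells. ATG12-/- EVs had 616, 0 and 0 TPM, and ATG12-/- cells 0, 56.7 and 0 TPM. Wild-type EVs had 0, 63.4 and 114 TPM, and wild-type cells 0, 5486 and 18249 TPM. Its level thus differed between replicates of 1 group by the whole of its range. RN7SL4P shares 143 windows of 50 bases with RN7SL2, 84 with RN7SL1 and 35 with RN7SL3. Without RN7SL4P the other pseudogenes averaged 6597 ± 890 TPM in EVs and 14621 ± 3088 TPM in cells (SD, n = 9 each), and every EV library remained below every cell library. Adding all pseudogenes to the 3 copies kept 7SL higher in EVs, at log2 fold changes of 0.68 in ATG7-/- (limma adjusted p = 0.0018), 0.90 in ATG12-/- (adjusted p = 0.00017) and 0.57 in wild type (adjusted p = 0.0030). The sum over the 14 genes that share at least 1 window with a copy gave 1.05, 1.36 and 1.17 (adjusted p = 0.0014, 0.00015 and 0.00034), a choice made after the data were seen.

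Knockout EVs held a smaller share of 7SL than wild-type EVs, by an amount that did not pass the test. The sum was 15.6% lower in ATG7-/- EVs than in wild-type EVs by group means as deposited, and 21.6% lower in ATG12-/- EVs. No knockout EV library reached the lowest wild-type EV library, although the highest ATG7-/- library, at 87587 TPM, lay just under the wild-type minimum of 88512 TPM. Over all genes, the groups did not overlap for 13.9% in ATG7-/- EVs and 11.3% in ATG12-/- EVs. Without scaling, the log2 fold change of the sum was -0.25 in ATG7-/- EVs (limma adjusted p = 0.58) and -0.35 in ATG12-/- EVs (limma adjusted p = 0.31). After scaling, the log2 fold change was -0.15 in ATG7-/- EVs (95% interval -0.39 to 0.09, limma adjusted p = 0.81) and -0.28 in ATG12-/- EVs (95% interval -0.52 to -0.04, unadjusted p = 0.029, limma adjusted p = 0.59). With sample weights and no trend the values were -0.16 and -0.28 with far larger standard errors (0.40 and 0.44), so the width of these intervals depends on the fit. In cells the group means stood the other way: the sum was 30.2% higher in ATG7-/- cells and 19.2% higher in ATG12-/- cells than in wild-type cells, with overlapping groups and log2 fold changes of 0.45 (95% interval -0.01 to 0.91, limma adjusted p = 0.36) and 0.27 (95% interval -0.19 to 0.74, adjusted p = 0.56). The direction in cells depended on which copies were counted. With the pseudogenes included it was -0.01 in ATG7-/- cells and -0.28 in ATG12-/- cells, and with the 14 genes that share a window it was -0.15 in ATG12-/- cells. Without RN7SL4P, a subset chosen after its values were seen, the pseudogenes had at most 14410 TPM in a knockout cell library. Wild-type cells had 21081, 16289 and 17444 TPM. With RN7SL4P kept, ATG7-/- cells reached 25124 TPM and overlapped wild-type cells, whose lowest value was 21081 TPM. Over all genes, knockout and wild-type cells did not overlap for 19.9% in ATG7-/- and 23.6% in ATG12-/-.

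The EV-to-cell difference of 7SL itself was not shown to differ between genotypes. The log2 difference of that change, ATG7-/- minus wild type, was -0.35 (95% interval -0.80 to 0.10, limma adjusted p = 0.66), and ATG12-/- minus wild type it was -0.24 (95% interval -0.69 to 0.21, adjusted p = 0.76). Both turned positive with the pseudogenes included (0.11 and 0.33). By group means the 6 groups stood in the order wild-type EVs, ATG7-/- EVs, ATG12-/- EVs, ATG7-/- cells, ATG12-/- cells and wild-type cells. The only neighbours in it whose libraries did not overlap were wild-type EVs and ATG7-/- EVs, and ATG12-/- EVs and ATG7-/- cells.

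Other RNA polymerase III transcripts measured in the same libraries are set beside this. RPPH1, the RNA of RNase P, had 4757, 4318 and 3571 TPM in ATG7-/- EVs and 4026, 4868 and 4785 TPM in ATG12-/- EVs, against 10328, 13561 and 11619 TPM in wild-type EVs. It fell by 1.39 and 1.30 on the log2 scale (SE 0.14 each, limma adjusted p = 0.0076 and 0.015). RN7SK, the RNA that holds the elongation factor P-TEFb inactive, fell by 1.03 in ATG7-/- EVs (SE 0.13, limma adjusted p = 0.024), and its value in ATG12-/- EVs was -0.85 (adjusted p = 0.070). RMRP, the RNA of RNase MRP, was not called, with log2 fold changes of 0.49 in ATG7-/- EVs (SE 0.75, limma adjusted p = 0.94) and 0.80 in ATG12-/- EVs (SE 0.75, adjusted p = 0.83). These comparisons share the wild-type EV libraries with those of 7SL, and no test of the difference between 7SL and these RNAs was run. By group means, RPPH1 was 80.7% higher in ATG7-/- cells and 166% higher in ATG12-/- cells than in wild-type cells. RN7SK was 48.8% and 20.0% higher. RPPH1 in ATG7-/- cells and RN7SK in ATG12-/- cells overlapped wild type. RMRP averaged 226, 270 and 194 TPM in ATG7-/-, ATG12-/- and wild-type cells. In wild-type EVs and cells RPPH1 averaged 11836 and 845 TPM, RN7SK 20660 and 5934 TPM, and RMRP 129 and 194 TPM. In ATG7-/- EVs and cells RPPH1 averaged 4216 and 1527 TPM, RN7SK 9463 and 8828 TPM, and RMRP 212 and 226 TPM. There the RN7SK levels of EVs and cells overlapped. In ATG12-/- EVs and cells RPPH1 averaged 4560 and 2247 TPM, RN7SK 10813 and 7118 TPM, and RMRP 262 and 270 TPM.

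Among EVs, the division between the 2 main copies stood apart in ATG12-/-. RN7SL2 had 40205, 41877 and 50399 TPM in ATG7-/- EVs and 29553, 33391 and 27949 TPM in ATG12-/- EVs, against 50809, 59058 and 53164 TPM in wild-type EVs. The ATG12-/- values were the lowest and did not overlap those of either other genotype. RN7SL1 had 30944, 30944 and 34926 TPM in ATG7-/- EVs and 42449, 41000 and 36156 TPM in ATG12-/- EVs, against 35876, 29890 and 42535 TPM in wild-type EVs, with overlapping groups. For RN7SL2 in ATG12-/- EVs the log2 fold change was -0.77 (SE 0.12, unadjusted p = 0.00010, limma adjusted p = 0.074), over the threshold of 0.05. Across the alternatives its adjusted p ran from 0.039, without scaling, to 0.82, with sample weights and no trend. For RN7SL1 it was 0.23 (SE 0.14, limma adjusted p = 0.70).

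RN7SL2 made up 41.04%, 44.9% and 43.6% of RN7SL1 plus RN7SL2 in ATG12-/- EVs, against 58.6%, 66.4% and 55.6% in wild-type EVs. In ATG7-/- EVs it made up 56.5%, 57.5% and 59.1%, within the wild-type range. The mean in ATG12-/- EVs was 17.0 percentage points below that in wild-type EVs (two-sided exact permutation p = 0.1, the smallest that 3 against 3 allows). It was 14.5 points below that in ATG7-/- EVs (two-sided exact permutation p = 0.1). ATG12-/- cells had shares of 43.6%, 38.2% and 53.9%, against 69.6%, 50.6% and 51.3% in wild-type cells, which overlap (mean difference -11.9 points, exact permutation p = 0.3). The ATG12-/- share was thus below 50% in all 3 EV libraries and in 2 of 3 cell libraries, and no other library was below 50%. Between ATG12-/- EVs and ATG12-/- cells the mean shares were 43.2% and 45.2% (difference -2.07 points, two-sided exact permutation p = 0.9), so the division was not shown to be particular to EVs. The tests of this share and the line at 50% were not planned. RN7SL1 and RN7SL2 share 158 windows of 50 bases, and the table does not show how many reads told them apart.

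**Figure D2:**
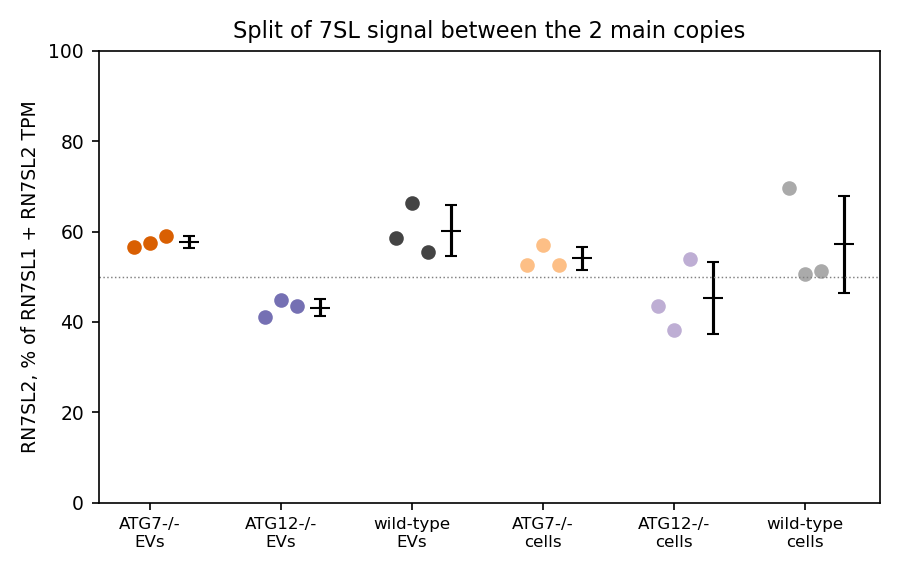
RN7SL2 as a percent of RN7SL1 plus RN7SL2 TPM (y axis) in each library (points), with the mean and SD of the 3 libraries beside them (black) and a dotted line at 50%. The ATG12-/- EVs lie at 41.04% to 44.9%, below the 55.6% to 66.4% of wild-type EVs.

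None of the 9 SRP genes was called by limma in the knockout comparisons, in which calls were rare altogether. Among all genes tested 0.141% were called in ATG7-/- EVs, 0.105% in ATG12-/- EVs, 0.2% in ATG7-/- cells and 0.134% in ATG12-/- cells, each against wild type. At an unadjusted p under 0.05 the members numbered 0 in ATG7-/- EVs, 1 in ATG12-/- EVs (RN7SL2), 0 in ATG7-/- cells and 1 in ATG12-/- cells (SRP54). Over all genes that threshold was passed by 1261 and 1355 of 17076 in the EVs of ATG7-/- and ATG12-/-, and by 3243 and 3363 of 22471 in their cells, so 1 of 9 is near the background. In the tests of the EV-to-cell difference between genotypes 0 of 9 members were called for either knockout, where 0.276% of all genes were called for ATG7-/- and 0.272% for ATG12-/-. At an unadjusted p under 0.05 there were 0 members for either, beside 2189 and 2493 of all 24647 genes. The groups did not overlap for 3 members in ATG7-/- EVs (SRP9 higher, RN7SL2 and SRP68 lower; 13.9% of all genes) and for 1 in ATG12-/- EVs (RN7SL2 lower; 11.3% of all genes). In cells they did not overlap for 0 members in ATG7-/- cells (19.9% of all genes) and for 2 in ATG12-/- cells (SRP54 higher and SRP19 lower; 23.6% of all genes). Between EVs and cells they did not overlap for 3 members in ATG7-/- (31.1% of all genes), 4 in ATG12-/- (30.7%) and 4 in wild type (35.5%).

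**Figure D3:**
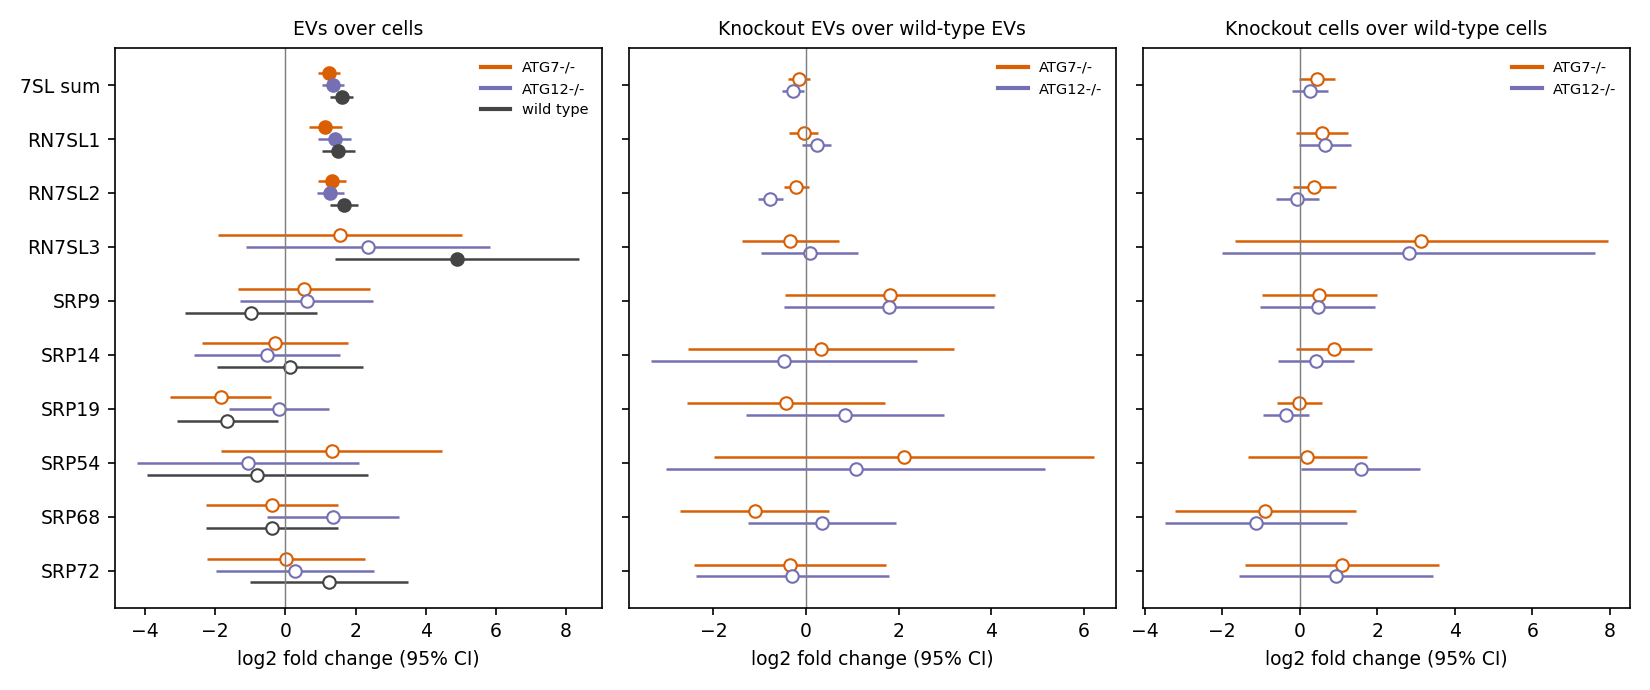
Log2 fold change on log2(TPM + 1) with its 95% confidence interval (x axis) for the 7SL sum and each SRP gene (rows), for EVs over cells within each genotype, knockout EVs over wild-type EVs and knockout cells over wild-type cells. Filled points passed the limma test at an adjusted p under 0.05: only 7SL genes did, and only between EVs and cells.

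The listed levels of the SRP protein genes were low beside that of the RNA that their products bind. The part that the strand setting, which is not given, plays in these levels was not tested. Together the 6 genes had 39.5 to 245 TPM in an EV library and 30.4 to 116 TPM in a cell library, or at most 0.0245% of a library. The averages were 94.9 ± 64.8 TPM in EVs and 58.7 ± 27.6 TPM in cells (SD, n = 9 each, two-sided exact permutation p = 0.13). This sum leaves out the pseudogene SRP9P1, described below, whose sequence is identical to part of SRP9. SRP9 and SRP9P1 together averaged 3183 ± 550 TPM in EVs and 626 ± 285 TPM in cells (SD, n = 9 each). How much of that is SRP9 mRNA was not tested, so the sum, its share and its test are uncertain to that extent. None of the 6 protein genes passed the limma test in any of the 7 group comparisons, in which the smallest adjusted p was 0.084, and replicates of 1 group often differed more than groups did. The standard errors of their EV-to-cell log2 fold changes ran from 0.67 to 1.48, so changes of a few fold were not detectable in these libraries.

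SRP9 is at chr1:225777813-225790466 on the + strand and encodes the smaller Alu-domain protein, which with SRP14 holds back elongation. It had 15.9, 39.4 and 13.1 TPM in ATG7-/- EVs and 82.1, 3.87 and 22.2 TPM in ATG12-/- EVs, against 1.97, 7.12 and 9.89 TPM in wild-type EVs. Cell levels were 5.70, 26.7 and 10.2 TPM for ATG7-/-, 17.5, 7.60 and 11.7 TPM for ATG12-/- and 5.92, 4.75 and 19.9 TPM for wild type. The ATG7-/- EV libraries all lay above the wild-type ones and the ATG12-/- ones overlapped them, with log2 fold changes of 1.82 (SE 1.01, limma adjusted p = 0.73) and 1.78 (SE 1.01, adjusted p = 0.68).

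SRP9P1, a processed pseudogene at chr10:91807179-91807439 on the - strand, was looked at after its values were seen because its transcript is identical to part of SRP9. Its 261 bases match positions 113 to 373 of a 1480-base protein-coding transcript of SRP9 at 100%, in the same orientation. They are printed 5′ to 3′ from GENCODE 29 (GRCh38), with the first and last codon of the open frame in capitals.
SRP9P1: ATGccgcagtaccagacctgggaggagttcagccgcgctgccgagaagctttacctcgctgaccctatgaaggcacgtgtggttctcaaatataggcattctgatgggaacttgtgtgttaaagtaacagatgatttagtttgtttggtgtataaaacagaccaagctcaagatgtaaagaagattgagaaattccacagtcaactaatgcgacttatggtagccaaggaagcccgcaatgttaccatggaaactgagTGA
A read of 50 bases from within this stretch has the same sequence whichever of the 2 loci it came from. SRP9P1 had 3364, 3631 and 3444 TPM in ATG7-/- EVs, against 620.5, 453 and 581 TPM in ATG7-/- cells. It had 3885, 3351 and 2958 TPM in ATG12-/- EVs, against 817, 1050.2 and 991 TPM in ATG12-/- cells. Wild-type EVs had 2123, 2688 and 3012 TPM, against 220.1, 403 and 391 TPM in wild-type cells. Every EV library stood above every cell library, and in each library SRP9P1 was far above SRP9 itself. The log2 fold change of EVs over cells was 2.44 in ATG7-/-, 1.69 in ATG12-/- and 2.48 in wild type (SE 0.23 each, limma adjusted p = 7.8e-06, 0.00030 and 4.7e-06). Against wild type it was 0.53 in ATG7-/- EVs (adjusted p = 0.53) and 0.46 in ATG12-/- EVs (adjusted p = 0.57). In cells, where neither knockout overlapped wild type, it was 0.81 in ATG7-/- (adjusted p = 0.25) and 1.57 in ATG12-/- (SE 0.27, adjusted p = 0.093). How much of the SRP9P1 signal belongs to SRP9 mRNA was not tested, and the level of SRP9 is uncertain to that extent.

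SRP14, at chr15:40035739-40039188 on the - strand, encodes the partner of SRP9. It had 3.59, 7.10 and 8.36 TPM in ATG7-/- EVs and 6.69, 8.002 and 0 TPM in ATG12-/- EVs, against 29.5, 5.80 and 0 TPM in wild-type EVs. Cell levels were 9.38, 8.29 and 3.41 TPM for ATG7-/-, 2.85, 7.19 and 4.55 TPM for ATG12-/- and 4.03, 2.11 and 3.96 TPM for wild type. It was listed at 0 in 2 EV libraries, and its highest value was in another EV library, so the wild-type EV libraries spanned those of both knockouts. Of its signal, 74.3% in EVs and 51.2% in cells was on the 468-base transcript SRP14-208, while a 1077-base protein-coding transcript was listed at 0 in all EV libraries.

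SRP19, at chr5:112861188-112898371 on the + strand, encodes the protein whose binding to 7SL lets SRP54 join the particle. It had 1.01, 1.63 and 1.78 TPM in ATG7-/- EVs, against 6.04, 7.74 and 6.90 TPM in ATG7-/- cells. It had 9.98, 0.25 and 14.9 TPM in ATG12-/- EVs, against 6.81, 5.81 and 3.76 TPM in ATG12-/- cells. Wild-type EVs had 1.52, 3.81 and 2.47 TPM, against 7.37, 7.32 and 7.10 TPM in wild-type cells. EVs were below cells without overlap in ATG7-/- and wild type, and in ATG12-/- the EV libraries spread to both sides of the cells. The log2 fold changes of EVs over cells were -1.85 in ATG7-/- (SE 0.67, limma adjusted p = 0.088), -0.18 in ATG12-/- (SE 0.67, adjusted p = 0.90) and -1.65 in wild type (SE 0.67, adjusted p = 0.084). With sample weights and no trend the ATG7-/- value passed (-1.86, adjusted p = 0.029). In cells 64.5% of SRP19 signal was on SRP19-208, a 7063-base transcript annotated for nonsense-mediated decay, and 368 bases of SRP19 exons lie opposite exons of REEP5 on the other strand.

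SRP54, at chr14:34981957-35029567 on the + strand, encodes the GTPase that binds signal sequences and the SRP receptor. It had 0, 186 and 72.7 TPM in ATG7-/- EVs and 11.1, 16.5 and 6.95 TPM in ATG12-/- EVs, against 6.69, 0 and 25.1 TPM in wild-type EVs. Cell levels were 10.5, 7.56 and 5.46 TPM for ATG7-/-, 9.25, 75.5 and 14.2 TPM for ATG12-/- and 6.93, 5.40 and 8.48 TPM for wild type. The ATG7-/- EV group alone ran from a library listed at 0 to the highest value of the 18. Of the EV signal 77.3% was on the 162-base transcript SRP54-214, which was above 0 in 3 of the 18 libraries. In ATG12-/- cells, whose libraries lay above wild type, the log2 fold change was 1.57 (SE 0.67, unadjusted p = 0.047, limma adjusted p = 0.33).

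SRP68 and SRP72 encode the 2 largest SRP proteins, which bind 7SL as a pair. SRP68, at chr17:76038775-76072653 on the - strand, had 2.87, 3.15 and 2.02 TPM in ATG7-/- EVs and 3.52, 11.2 and 17.8 TPM in ATG12-/- EVs, against 12.01, 4.16 and 7.56 TPM in wild-type EVs. Cell levels were 4.99, 2.54 and 2.55 TPM for ATG7-/-, 2.84, 1.83 and 3.46 TPM for ATG12-/- and 4.84, 46.4 and 0.90 TPM for wild type. The ATG7-/- EV libraries lay below the wild-type ones (log2 fold change -1.11, SE 0.71, limma adjusted p = 0.79), and 1 wild-type cell library held the highest value. A 165-base transcript, SRP68-213, was above 0 in 1 library and made up 58.3% of the cell signal. SRP72, at chr4:56467336-56503681 on the + strand, had 16.1, 8.04 and 12.98 TPM in ATG7-/- EVs and 2.54, 10.96 and 58.4 TPM in ATG12-/- EVs, against 19.8, 25.2 and 8.76 TPM in wild-type EVs. Cell levels were 17.9, 23.8 and 1.97 TPM for ATG7-/-, 19.8, 17.7 and 1.82 TPM for ATG12-/- and 1.33, 11.5 and 4.62 TPM for wild type, and all 6 groups overlapped. Most of the SRP72 signal, 65.7% in EVs and 82.7% in cells, was on the 429-base retained-intron transcript SRP72-207, and a 4136-base protein-coding transcript held 1.66% in EVs and 9.79% in cells.

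**Figure D4:**
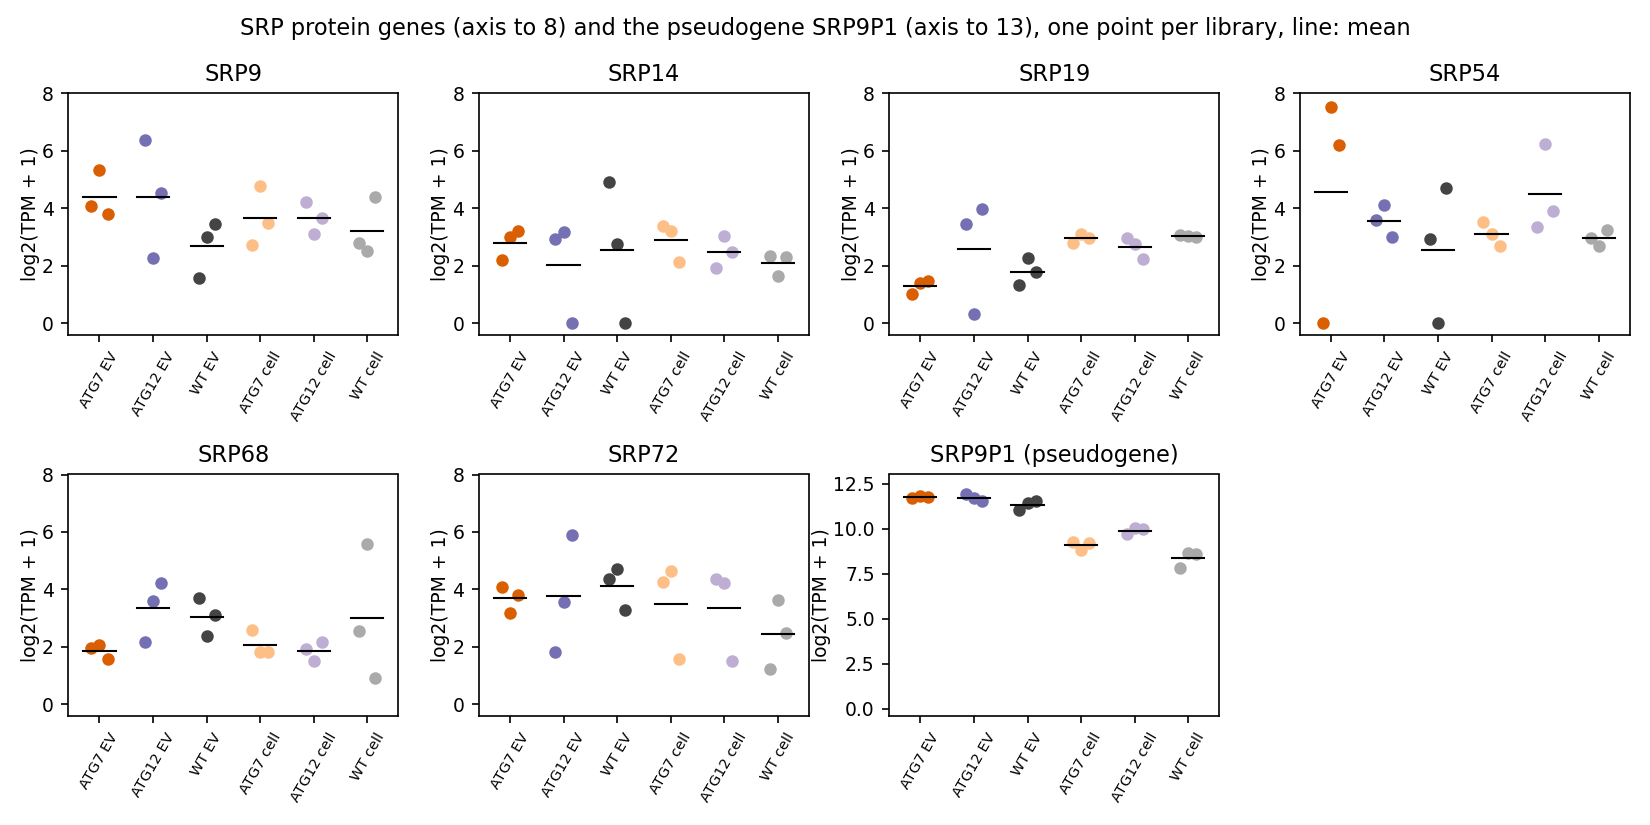
log2(TPM + 1) of the 6 SRP protein genes and of SRP9P1 (y axes, with a higher upper limit for SRP9P1) in each library (points), with the group mean as a line. The protein genes spread within groups, SRP14 and SRP54 include libraries listed at 0, and SRP9P1 is higher in all EV libraries than in any cell library.

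The genes that act with SRP were taken from a list of 21 with the SRP receptor, the SEC61 translocon and its partners, the signal peptidase, the 7SL-related RNA BCYRN1 and the La protein gene SSB. All 21 were tested, and 0 were called by limma in the 4 knockout comparisons. The receptor genes SRPRA and SRPRB were not called in any comparison, at 5.36 to 23.6 TPM for SRPRA and 0 to 18.4 TPM for SRPRB in EV libraries and 8.18 to 22.5 TPM and 2.95 to 6.37 TPM in cells. EVs over cells, 2 of the list were called higher and 0 lower in ATG7-/-, 3 higher and 1 lower in ATG12-/-, and 3 higher and 2 lower in wild type. Over all genes 2.71%, 2.27% and 4.02% were called higher and 8.68%, 8.97% and 20.6% lower. The list's median log2 fold change was 0.00, -0.52 and -0.10, beside -0.49, -0.55 and -0.76 over all genes.

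The list genes called higher in EVs were SSR2, SSR3 and SSR4, subunits of the TRAP complex beside the translocon, and SPCS3. The other TRAP gene, SSR1, was not called, with log2 fold changes of 0.72 in ATG7-/-, 0.49 in ATG12-/- and -0.61 in wild type. SSR3 had 77.6, 36.7 and 47.7 TPM in ATG7-/- EVs, against 9.67, 14.1 and 20.2 TPM in ATG7-/- cells. SSR4 had 245, 203 and 176 TPM in ATG7-/- EVs, against 17.4, 87.4 and 39.0 TPM in ATG7-/- cells. Both lay above all cell libraries in the EVs of that genotype. SSR3 rose in EVs by 1.58, 1.76 and 2.74 on the log2 scale in ATG7-/-, ATG12-/- and wild type (limma adjusted p = 0.028, 0.018 and 0.00056), and SSR4 by 2.15, 1.57 and 2.22 (adjusted p = 0.0047, 0.027 and 0.0019). SSR2 rose in wild-type EVs by 2.22 (limma adjusted p = 0.0064), and SPCS3, a signal peptidase subunit, rose in ATG12-/- EVs by 1.72 (adjusted p = 0.046).

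SSB, whose protein La binds the 3′ ends of new RNA polymerase III transcripts, was lower in EVs of 2 genotypes. It had 24.2, 33.4 and 24.1 TPM in ATG7-/- EVs and 10.8, 12.5 and 10.3 TPM in ATG7-/- cells. It had 0, 1.25 and 0 TPM in ATG12-/- EVs, against 14.6, 16.7 and 11.3 TPM in ATG12-/- cells, and 0, 1.75 and 7.02 TPM in wild-type EVs, against 24.8, 16.3 and 12.7 TPM in wild-type cells. Its EVs lay above the cells in ATG7-/- and below them in ATG12-/- and wild type. It fell in EVs by 3.56 in ATG12-/- and 3.09 in wild type on the log2 scale (limma adjusted p = 0.0013 and 0.0017), and its value in ATG7-/- was 0.98 (adjusted p = 0.28). SPCS1 fell in wild-type EVs by 1.82 (adjusted p = 0.0070). BCYRN1, the brain cytoplasmic RNA with an Alu-like end that SRP9 and SRP14 can bind, ranged from 0 to 449 TPM in EVs and from 54.4 to 507 TPM in cells and was not called.

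Among 5786 genes compared over all 18 libraries, the patterns nearest to the 7SL sum were those of LDHB, NRSN1, ACTB, PABPC1 and EIF4H, with root mean square differences of centred log2 values of 0.26, 0.29, 0.29, 0.30 and 0.30. LDHB averaged 130 TPM in EVs and 43.3 TPM in cells, ACTB 739 and 245 TPM, and PABPC1 1160 and 394 TPM. The nearest to SRP14, the protein gene for which this was computed, were MRPL34, CARMIL2 and APEH, at 0.71, 0.74 and 0.74. SRP14 was low and listed at 0 in 2 libraries, and such a distance grows with a gene's own spread. Its distances are therefore not comparable with those of 7SL. Genes of low mean level and clone-named genes were left out of the genes compared. These distances describe 18 libraries that share the EV and cell division, and carry no test.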

How the data were processed

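The authors deposited 1 table of TPM for 203027 transcripts in 18 libraries, and per the submitters' processing notes Salmon 0.14 and DESeq2 were used, with no role stated. Per the labels' protocols, a stranded total RNA kit with 22 PCR cycles gave libraries sequenced from one end over 50 bases. For the build, annotation and strand setting the sources used here give nothing, and no label gives a lane or date, so no batch was modelled. TPM keep no depth, so no counting interval was possible.

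Transcripts were matched by identifier to GENCODE 29 (202941 matched, 86 did not, with at most 0.0384% of a library) and summed per gene. The 9 members and the gene lists were chosen with earlier results of these data known. Median-of-ratios scaling was applied, and genes reaching 1 TPM in 3 or more fitted libraries were tested on log2(TPM + 1), a scale that understates the change of low genes, with limma 3.58.1 in R 4.3.3 (trend, two-sided, Benjamini-Hochberg over all genes tested, threshold 0.05). All 9 members passed this filter. The 7SL sum was 1 added row. Knockout comparisons used the 9 EV or the 9 cell libraries, the others all 18. TPM in the text are as deposited. Shared windows were found by matching every 50-base window of a copy to all annotated transcripts. The fit was tested on simulated data. The text names the 9 members, the list genes called, the 5 nearest patterns at most, and RN7SL4P and SRP9P1, chosen after their values were seen. Alternatives were the pseudocount, the filter, the scaling, the trend, a replicate block, each library left out, and sums with pseudogenes or genes sharing windows. The sequences of the 7SL copies are not reported here.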

Additional observations from a re-analysis of the deposited data

How the results depend on the processing

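The 7SL sum kept its direction and its call as higher in EVs than in cells under every alternative run, with log2 fold changes from 0.68 to 1.48 in ATG7-/-, 0.90 to 1.51 in ATG12-/- and 0.57 to 2.11 in wild type, and with each library left out from 1.14 to 1.33, 1.23 to 1.49 and 1.48 to 1.72. With RN7SL pseudogenes added, the value reversed in ATG7-/- cells against wild type (-0.013), in ATG12-/- cells (-0.28) and in the EV-to-cell difference of ATG7-/- (0.11) and ATG12-/- (0.33), and with genes sharing a window in ATG12-/- cells (-0.15) and in the ATG12-/- difference (0.19). Among uncalled members, SRP72 reversed with sample weights and no trend between EVs and cells of ATG7-/- (-0.20) and ATG12-/- (-0.010), SRP14 in wild type with a pseudocount of 0.1 (-0.78) and SRP68 in wild type without scaling (0.042); the cause was not tested.

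The count of genes called moved by more than 1.5 times in ATG7-/- EVs (24) to 8 with no filter and 9 with the replicate block, in ATG12-/- EVs (18) to 5 with no filter, 4 with sample weights and 3 with the block, in ATG7-/- cells (45) to 13 and ATG12-/- cells (30) to 12 with the block, in the ATG7-/- difference (68) to 45 without scaling, 26 with sample weights and 45 with the block, and in the ATG12-/- difference (67) to 28 with sample weights. The block changed no call of a member or of the 7SL sum: for RN7SL2 in ATG12-/- EVs it gave -0.77 (adjusted p = 0.18). Whether replicate numbers pair the libraries was not decided. Of 45 same-numbered pairs 0 had a correlation of deviations over 0.1 (-0.034 to 0.047). Only 9 of them joined EVs and cells of 1 genotype (-0.0058 to 0.026), and 6 of 9 EV libraries correlated best with the cell library of their own number. These correlations include low genes and cannot exclude pairing.

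With each library left out in turn, the count of genes called ran from 5 to 15 for ATG7-/- EVs against wild-type EVs, 5 to 18 for ATG12-/- EVs against wild-type EVs, 5 to 51 for ATG7-/- cells against wild-type cells, 13 to 30 for ATG12-/- cells against wild-type cells, 1545 to 2101 for ATG7-/- EVs against ATG7-/- cells, 1311 to 2330 for ATG12-/- EVs against ATG12-/- cells, 26 to 75 for the EV-to-cell difference of ATG7-/- minus wild type and 26 to 91 for the EV-to-cell difference of ATG12-/- minus wild type. The log2 fold changes of members that changed sign or lost a call ran, by comparison, as follows. For ATG7-/- EVs against wild-type EVs they were RN7SL1 -0.17 to 0.081, RN7SL3 -0.59 to 0.13 and SRP14 -0.94 to 1.49. For ATG12-/- EVs against wild-type EVs they were RN7SL3 -0.30 to 0.53, SRP14 -1.72 to 0.71, SRP54 -0.18 to 2.14, SRP68 -0.072 to 0.93 and SRP72 -1.33 to 0.67. For ATG7-/- cells against wild-type cells they were SRP9 -0.058 to 1.06, SRP19 -0.088 to 0.070, SRP54 -0.014 to 0.42 and SRP68 -1.94 to 0.42. For ATG12-/- cells against wild-type cells they were RN7SL2 -0.26 to 0.12, RN7SL3 -0.12 to 4.44 and SRP68 -2.18 to 0.18. For ATG7-/- EVs against ATG7-/- cells they were SRP14 -0.69 to 0.045, SRP54 -0.14 to 3.60 and SRP72 -0.97 to 0.57. For ATG12-/- EVs against ATG12-/- cells they were SRP9 -0.39 to 1.66, SRP14 -1.05 to 0.49, SRP19 -0.82 to 0.94 and SRP72 -0.75 to 1.22. For wild-type EVs against wild-type cells they were RN7SL3 1.86 to 6.59, SRP14 -1.01 to 1.35, SRP54 -1.83 to 0.43 and SRP68 -1.48 to 0.94. TPM keep no depth, so the counting error of low genes such as SRP14 and SRP54 is unknown.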

Other observations

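RMRP averaged 200.7 ± 147 TPM in the 9 EV libraries and 230 ± 68.8 TPM in the 9 cell libraries (SD, n = 9 each) and was not called by limma in any comparison. RNAs opposite or derived from SRP protein genes were also measured. ZACN, whose gene start overlaps the start of SRP68 on the other strand by 693 bases with no exon-to-exon overlap, averaged 78.1 TPM in EVs and 95.4 TPM in cells. Both were more than SRP68 had (7.15 and 7.81 TPM). The pseudogene SRP68P2 was listed at 0 in all 9 EV libraries and was above 0 in 6 of 9 cell libraries, up to 67.3 TPM. SRP72P2 averaged 1.86 ± 1.81 TPM in EVs and 6.42 ± 1.31 TPM in cells (SD, n = 9 each). SRP68P2, SRP72P2 and ZACN were chosen after their values were seen.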
